A study of Mus musculus with 6 samples.

Results

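Genes for surface ligands and receptors through which a macrophage or dendritic cell instructs T cells were followed: Cd40, Cd80, Cd86, Cd83, Icosl, Cd274, Pdcd1lg2, Vsir and Slamf7. With them was taken Fscn1, which encodes the actin-bundling protein fascin. The list holds 10 of the 55263 genes with a counted transcript, taken by name, with all transcript counts of a gene summed. It was chosen with earlier results of these data known. RNA came from mouse macrophages differentiated in culture from bone marrow cells, in 3 groups with 2 libraries each. One group was the control, whose genotype the labels give as wild type. The second had received lipopolysaccharide (LPS), the endotoxin of Gram-negative bacteria that activates the receptor TLR4, and the third LPS + HACA. For these 2 groups the labels give the treatment in place of a genotype. HACA is not spelled out, and no dose or time is given. The series title concerns a hyaluronic acid nanomedicine for psoriasis in mice, while these libraries came from cultured cells.

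T cell activation needs antigen presented on MHC molecules and a second signal from costimulatory ligands. CD80 and CD86 give that signal through CD28, ICOS ligand gives it through ICOS, and CD40 receives the CD40 ligand of T cells and in turn licenses the presenting cell. PD-L1 (Cd274), PD-L2 (Pdcd1lg2) and VISTA (Vsir) are the opposing checkpoint ligands, which restrain T cells, and macrophages are known to change many of these molecules when TLR4 is engaged.

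Library totals were 12529874 to 15379496 counts. Values below are TMM-scaled CPM, that is, read counts relative to the library size after edgeR's trimmed-mean scaling, unless another unit is named. Replicates 1 and 2 differed in other cells' markers and in dividing-cell genes. In each group, replicate 1 had more of all 8 proliferation markers, whose summed levels in replicates 1 and 2 were 718.7 and 143.9 in control, 1918 and 1008 with LPS, and 1413 and 334.4 with LPS+HACA. Mki67 made up most of each sum. With LPS the means of Mki67, Top2a, Ccnb2 and Plk1 were higher than in control, and those of Ccnb1, Cdk1, Birc5 and Aurkb lower. No marker of the 8 had an edgeR adjusted p under 0.05 in any comparison, and their median log2 fold change with LPS was −0.15. The 5 stromal markers summed to 32.2 to 49.7 in the replicate 1 libraries and 1.35 to 1.93 in the replicate 2 libraries. Neutrophil markers (7 genes) summed to 4.74 to 12.7 in replicate 1 and 33.0 to 60.3 in replicate 2, with Ly6g and S100a9 at 0. The macrophage markers (10 genes) summed to 32295 to 55724 and were made up mostly of Lyz2, whereas Adgre1, which encodes F4/80, stood at 0.394 to 0.674. Only 3.0% of the exonic bases of Adgre1 are shared with no other transcript, and transcripts without such bases had almost no counts. Of the 9 macrophage markers tested, Cd14 was higher with LPS (log2 fold change 3.42, edgeR adjusted p = 0.00055). Mertk and Itgam were lower (−1.69 and −3.13, edgeR adjusted p = 0.00279 and 0.0185), Itgam with 2 and 2 counts in LPS. Over all genes 15.9% were higher and 14.3% lower. With HACA Cd14 alone passed, lower than with LPS (−2.57, edgeR adjusted p = 0.00569), beside 7.67%. Scaled by library totals, 1 marker was higher and 6 lower with LPS, and 3 and 1 with HACA.

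The promoters of 4 of these genes are shown because Cd274, Slamf7 and Fscn1 shared a direction in both main comparisons, while Pdcd1lg2, the neighbour of Cd274 starting 22823 bases beyond its end on chromosome 19, was almost without counts. RefSeq windows on GRCm38.p6 were at hand for 7 of the 10 genes, among them Icosl, Cd80 and Vsir, and not for Cd40, Cd86 and Cd83. Each line gives the 250 bases before the annotated start, 5′ to 3′ on the gene's strand, with motif matches in capitals. The windows are chr19:29367188-29367437 (+), chr19:29410669-29410918 (+), chr1:171649000-171649249 (−) and chr5:142960105-142960354 (+).
Cd274: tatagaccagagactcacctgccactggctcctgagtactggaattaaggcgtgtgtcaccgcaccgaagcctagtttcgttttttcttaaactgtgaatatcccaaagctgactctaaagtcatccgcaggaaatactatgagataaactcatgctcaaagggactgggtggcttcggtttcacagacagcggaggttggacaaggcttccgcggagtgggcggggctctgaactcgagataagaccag
Pdcd1lg2: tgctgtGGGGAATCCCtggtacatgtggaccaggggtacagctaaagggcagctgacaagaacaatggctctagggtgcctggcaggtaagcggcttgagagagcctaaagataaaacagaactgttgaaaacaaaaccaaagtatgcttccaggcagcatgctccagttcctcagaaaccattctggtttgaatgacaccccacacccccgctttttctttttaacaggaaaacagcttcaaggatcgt
Slamf7: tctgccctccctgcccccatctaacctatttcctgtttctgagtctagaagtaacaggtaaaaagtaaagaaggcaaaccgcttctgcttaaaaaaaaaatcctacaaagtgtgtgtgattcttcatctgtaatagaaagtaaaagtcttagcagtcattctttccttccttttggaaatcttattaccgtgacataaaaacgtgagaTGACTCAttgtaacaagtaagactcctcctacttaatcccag
Fscn1: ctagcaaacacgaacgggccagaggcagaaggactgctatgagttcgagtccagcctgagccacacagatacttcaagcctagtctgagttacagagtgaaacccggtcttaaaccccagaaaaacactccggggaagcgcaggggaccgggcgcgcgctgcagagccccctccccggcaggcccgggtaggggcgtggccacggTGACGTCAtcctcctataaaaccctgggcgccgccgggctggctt
The 5 motifs, chosen after the windows had been seen, were searched on both strands of the full 300-base windows, which add 50 bases after the start. The Slamf7 window holds the AP-1 motif TGAGTCA on its other strand (TGACTCA), 42 bases before the start, and 5.20% of 32851 windows hold that motif. The Fscn1 window holds the cyclic AMP response element TGACGTCA 45 bases before the start, as do 1.79% of windows. The kappaB motif, GGGA and CC with 4 bases between them, lies 244 bases before the start of Pdcd1lg2, 210 before that of Cd80 and 71 before that of Icosl, and 20.7% of windows hold it. Neither the interferon-stimulated response element (ISRE, TTTC repeated with 2 bases between, 3.44% of windows) nor the GAS motif (TTCNNNGAA, 8.30%) was found in the 7 windows, and Cd274 and Vsir held none of the 5. These matches describe letters only. The most counted transcript started 17 bases after the annotated start for Cd274, at it for Pdcd1lg2 and 12 bases before it for Fscn1, but 4036 bases upstream for Slamf7. It lay 8 bases from the annotated start for Icosl, 3372 for Cd80 and 2472 for Vsir, so the windows of Slamf7, Cd80 and Vsir are not the promoters of the transcripts that held most of their counts.

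LPS raised 5 of the 10 genes, lowered 1 and left 2 on the other side of the test's threshold, and the remaining 2 had too few counts to be tested. With HACA added, 4 of the raised genes were lower than with LPS alone. Cd40, Cd274, Slamf7 and Fscn1 rose with LPS and fell with HACA, and Vsir fell with LPS. Icosl rose with LPS, was not called with HACA against LPS, and was called above control in LPS+HACA. A gene was called at a Benjamini-Hochberg adjusted p under 0.05 in edgeR's quasi-likelihood test over 17113 genes. The 5 higher and 1 lower of 8 tested compare with 15.9% and 14.3% of all genes (30.1% in either direction). Against LPS alone, 0 were higher and 4 lower with HACA, beside 5.74% and 7.67% of all genes (13.4% in either direction). Against control, LPS+HACA had 2 higher and 0 lower, beside 0.894% and 0.257% (1.15% in either direction). The median log2 fold change of the 8 tested genes was 2.88, −1.62 and 1.06 in these 3 comparisons, against −0.05, 0.06 and 0.00 over all genes. The genes were chosen with earlier results of these data known, so the shares beside them are no test of the list. The comparisons share libraries, and in bulk RNA fewer cells of a type and less RNA per cell cannot be told apart.

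**Figure D1:**
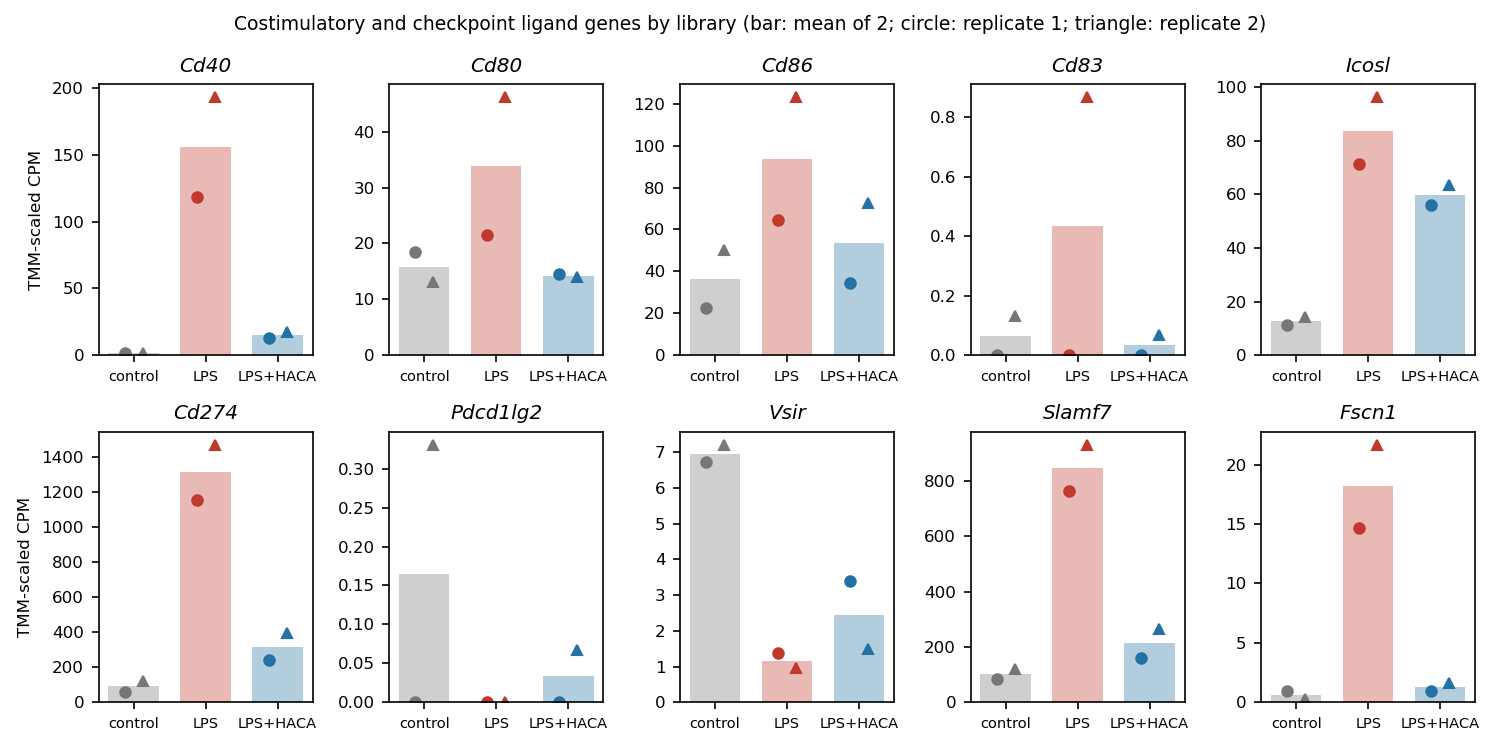
Level of each of the 10 genes in every library, in TMM-scaled CPM on a linear axis from 0, by group. Bars are means of 2 libraries, circles replicate 1 and triangles replicate 2. Cd40, Cd80, Icosl, Cd274, Slamf7 and Fscn1 are highest in both LPS libraries, Cd80 and Icosl by a narrow margin. Vsir is highest in both control libraries, and Cd83 and Pdcd1lg2 stay under 1 CPM.

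Cd40, the receptor through which T cell help reaches a macrophage, lies at chr2:165055627-165072948 on the plus strand. It stood at 1.25 and 1.46 CPM in control, 119 and 193 with LPS and 13.2 and 17.2 with LPS+HACA. The 3 groups did not overlap, and LPS+HACA lay between the other two. LPS raised Cd40 from 1.35 ± 0.142 to 156 ± 52.7 CPM (SD, n = 2 per group), 115-fold, a log2 fold change of 6.84 ± 0.38 (SE, edgeR adjusted p = 9.7e-05). With HACA it fell to 15.2 ± 2.83 CPM, 10.2-fold lower (−3.36 ± 0.31, edgeR adjusted p = 0.00266). It was still 11.2-fold above control (3.48 ± 0.34, edgeR adjusted p = 0.00767), a call lost without control replicate 1 or 2 (edgeR adjusted p = 0.174 and 0.123).

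Cd40 counts came from 5 annotated transcripts, which gave a view of the same gene through separate stretches of sequence. In a model over 31475 transcripts, the coding transcripts Cd40-201 and Cd40-204 rose with LPS by 6.60 ± 0.44 and 6.59 ± 0.45 on the log2 scale, the retained-intron transcript Cd40-205 by 6.93 ± 0.45, and Cd40-206, annotated for nonsense-mediated decay, by 8.60 ± 0.65. Cd40-206 had 0 and 1 counts in control, so its size is the least certain. With HACA they changed by −3.51, −3.48, −3.12 and −3.12 against LPS (edgeR adjusted p = 0.000482 to 0.00164). Across all transcripts tested, 13.9% were higher and 12.5% lower with LPS, and with HACA 4.75% were higher and 6.31% lower. The retained-intron transcript held 24.9% and 22.8% of Cd40 counts in LPS and 28% and 27.8% with LPS+HACA.

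Cd80 and Cd86 encode the B7 ligands of CD28 and CTLA-4 and lie on chromosome 16 (Cd80 at chr16:38455561-38496335, Cd86 at chr16:36603869-36666081). Cd80 stood at 18.4 and 13.0 CPM in control, 21.6 and 46.1 with LPS and 14.5 and 14.1 with LPS+HACA. Both LPS libraries lay above all the others, but LPS replicate 1 only narrowly. The log2 difference was 1.10 ± 0.38 for LPS against control and −1.25 ± 0.38 for LPS+HACA against LPS (edgeR adjusted p = 0.0587 and 0.0658), and neither passed. Within replicate 1 these differences were 0.23 and −0.58, within replicate 2 1.82 and −1.71, so the estimate rests largely on replicate 2. Without LPS replicate 1 both passed (1.56 and −1.70, edgeR adjusted p = 0.00382 and 0.00589). Against control, Cd80 in LPS+HACA stood at −0.14 ± 0.37 (edgeR adjusted p = 0.961).

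For Cd86 the levels were 22.5 and 50.1 CPM in control, 64.5 and 123 with LPS and 34.4 and 72.4 with LPS+HACA. Replicate 2 was the higher library in every group, and the LPS+HACA libraries overlapped both other groups. Cd86 changed by 1.37 ± 0.53 with LPS and by −0.81 ± 0.52 with HACA on the log2 scale, and did not pass in either comparison (edgeR adjusted p = 0.0945 and 0.34). Within replicates 1 and 2 the LPS difference was 1.52 and 1.29 and the HACA difference −0.91 and −0.76, so the 2 replicates gave similar differences from different levels. The short transcript Cd86-203, without a coding frame in the annotation and with 5.59% of the counts, rose with LPS (1.70 ± 0.39, edgeR adjusted p = 0.00821). The coding Cd86-201, with 92.7% of the counts, did not pass (1.35 ± 0.51, edgeR adjusted p = 0.0907). The difference between these transcripts was not tested.

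Cd83, a marker of mature dendritic cells, was close to undetected. Its 12 counts were 0 and 2 in control, 0 and 9 with LPS and 0 and 1 with LPS+HACA, all in replicate 2. The ratio of LPS to control was 6.81 (exact 95% interval 1.41 to 64.7) and that of LPS to LPS+HACA 13.7 (1.90 to 600.5), intervals that cover counting error only. Only 19.8% of its exonic bases belong to no other transcript, so little of the gene may have been countable.

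Icosl, the ICOS ligand gene at chr10:78069302-78083913, kept most of its LPS level when HACA was added. It stood at 11.3 and 14.1 CPM in control, 71.2 and 96.1 with LPS and 56.2 and 63.6 with LPS+HACA. Both treated groups lay well above control, and the LPS+HACA libraries lay just below the LPS libraries. Icosl rose with LPS by 2.72 ± 0.26 on the log2 scale, 6.59-fold (edgeR adjusted p = 0.000427). The change with HACA was −0.48 ± 0.25 and did not pass (edgeR adjusted p = 0.224), and it was 0.18 with library totals as the scaling. Against control, LPS+HACA was 4.72-fold higher (2.24 ± 0.26, edgeR adjusted p = 0.0137). That call was lost without control replicate 1 or 2 or LPS+HACA replicate 2 (edgeR adjusted p = 0.237, 0.155 and 0.0558).

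The Icosl signal came almost wholly from 2 retained-intron transcripts, which held 98.1% of its 3979 counts. The coding transcripts Icosl-201 and Icosl-203 had 19 and 56 counts, over 58 and 744 bases of their own. Each retained-intron transcript rose with LPS (2.85 ± 0.30 for Icosl-202 and 2.48 ± 0.31 for Icosl-204, edgeR adjusted p = 8.29e-05 and 0.000247). In a fit over genes without retained-intron transcripts, added after the counts were seen, Icosl rose with LPS by 1.95 (edgeR adjusted p = 0.0481) and stood at 1.59 against control with HACA (edgeR adjusted p = 0.363). What share of these reads came from coding messenger RNA was not tested.

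**Figure D2:**
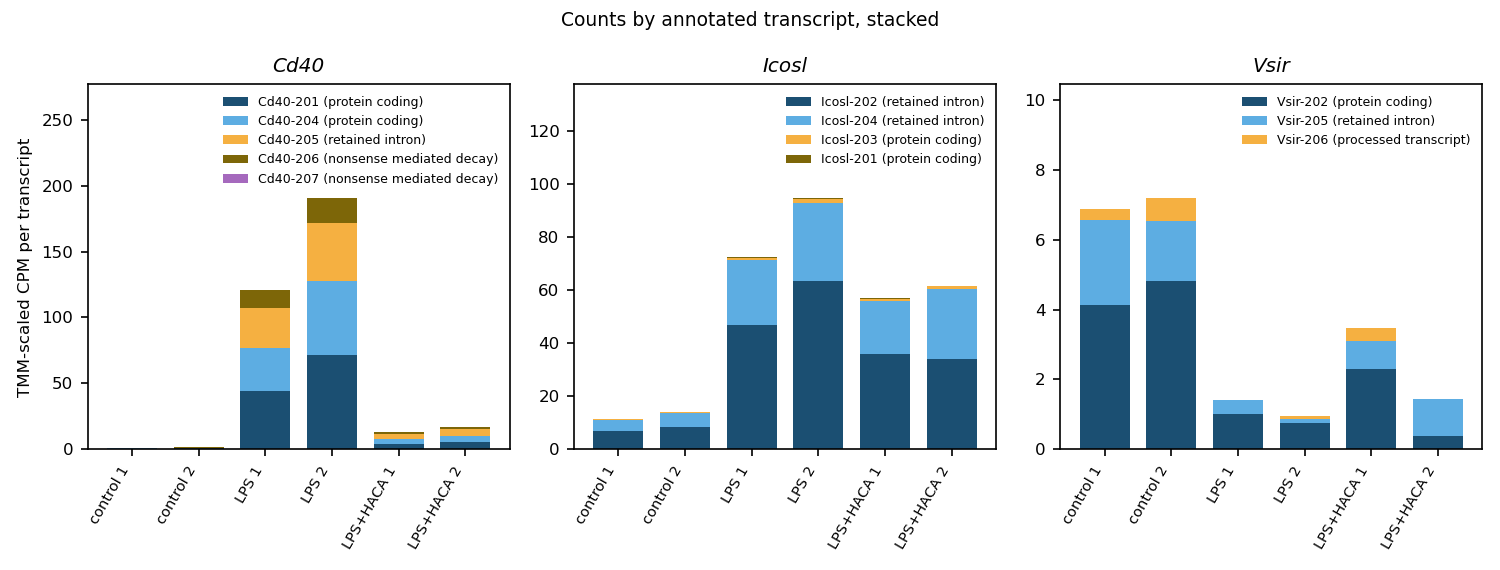
TMM-scaled CPM of each annotated transcript with counts, stacked by library, for Cd40, Icosl and Vsir. Cd40 draws on 4 main transcripts, Icosl almost only on 2 retained-intron transcripts, and Vsir on short transcripts with few bases of their own.

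Of the 3 checkpoint ligands among the 10 genes, Cd274 was the 1 that rose with LPS. It encodes PD-L1, the ligand of PD-1, and lies at chr19:29367455-29388095 on the plus strand. Its levels were 59.3 and 124 CPM in control, 1155 and 1469 with LPS and 241 and 395.5 with LPS+HACA. The groups did not overlap, and every replicate 2 library lay above its replicate 1. Cd274 rose with LPS from 91.9 ± 46.0 to 1312 ± 222 CPM, 14.3-fold (3.84 ± 0.42, edgeR adjusted p = 0.000778). It fell with HACA to 318 ± 109 CPM, 4.12-fold lower (−2.04 ± 0.39, edgeR adjusted p = 0.0175). Within replicates 1 and 2 the HACA difference was −2.26 and −1.89. The HACA call was lost without LPS replicate 1, LPS replicate 2 or LPS+HACA replicate 1 (−2.21, −1.86 and −1.70, edgeR adjusted p = 0.06, 0.128 and 0.102). Above control it stood at 1.79 ± 0.39 with HACA (edgeR adjusted p = 0.0881).

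A single transcript carried all 39630 Cd274 counts. The antisense gene AC119228.1 overlaps Cd274 on the other strand and had 8727 counts. It moved in the same directions, from 19.8 and 42.7 CPM in control to 253 and 251 with LPS and 69.5 and 97.8 with LPS+HACA (3.01 ± 0.38 and −1.59 ± 0.36, edgeR adjusted p = 0.00124 and 0.0281). Whether the counting used strand is not given in the sources used here, so reads of the 2 genes may not have been told apart.

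Pdcd1lg2, which encodes PD-L2, the other PD-1 ligand, had 6 counts in all. They were 0 and 5 in control, 0 and 0 with LPS and 0 and 1 with LPS+HACA. The 3 counts that a 0 allows correspond to 0.146 CPM over the LPS group, beside 0.165 measured in control, where all 5 counts came from 1 of the 2 libraries. No fold is given at this depth. Of its exonic bases, 27.7% belong to no other transcript.

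Vsir, which encodes the checkpoint ligand VISTA and lies at chr10:60346851-60372684, was the 1 gene of the list that fell with LPS. It stood at 6.71 and 7.21 CPM in control, 1.38 and 0.963 with LPS and 3.40 and 1.49 with LPS+HACA. Control lay above both treated groups, and both LPS libraries lay below both LPS+HACA libraries by a narrow margin. The fall with LPS was 5.91-fold (−2.56 ± 0.49, edgeR adjusted p = 0.0066). The difference of LPS+HACA was 1.06 ± 0.50 from LPS and −1.5 ± 0.44 from control, and neither passed (edgeR adjusted p = 0.189 and 0.197).

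Only 171 of 5014 exonic bases of Vsir (3.41%) are shared with no other transcript, and its full-length coding transcripts Vsir-201 and Vsir-203 had no counts. The 318 counts fell on the shorter coding Vsir-202 (198), the retained-intron Vsir-205 (98) and Vsir-206 (22). Vsir-202 and Vsir-205 each fell with LPS (−2.33 ± 0.67 and −3.04 ± 0.71, edgeR adjusted p = 0.0253 and 0.00898). The cadherin gene Cdh23, which spans Vsir on the other strand, fell as well, from 16.1 and 16.9 CPM in control to 1.48 and 1.73 in LPS, and rose to 8.38 and 6.63 with HACA (−3.35 ± 0.32 and 2.22 ± 0.31, edgeR adjusted p = 0.000382 and 0.00697). Its part in the Vsir counts was not tested.

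Slamf7 encodes a self-binding receptor of the SLAM family carried by macrophages and lymphocytes, and lies at chr1:171632403-171653035 on the minus strand. Its levels were 84.7 and 122 CPM in control, 762 and 930 with LPS and 162 and 266 with LPS+HACA. No 2 groups overlapped. LPS raised it 8.18-fold (3.03 ± 0.32, edgeR adjusted p = 0.000594), and with HACA it fell 3.95-fold from that level (−1.98 ± 0.31, edgeR adjusted p = 0.00881). The second call was lost without LPS+HACA replicate 1 (−1.64, edgeR adjusted p = 0.0587). The difference from control with HACA was 1.05 ± 0.30 (edgeR adjusted p = 0.183). Slamf7-203 held 97.5% of the counts, and the other counted transcript, Slamf7-204, rose and fell too (2.31 ± 0.32 and −1.90 ± 0.31, edgeR adjusted p = 0.00042 and 0.00434). The antisense gene Gm37787 within Slamf7 had 567 counts against 27184 and also rose and fell (2.69 ± 0.41 and −1.71 ± 0.39, edgeR adjusted p = 0.00259 and 0.0281).

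Fscn1, the actin-bundling protein fascin used as a marker of mature dendritic cells, lies at chr5:142960343-142973185. It stood at 0.941 and 0.265 CPM in control, 14.7 and 21.7 with LPS and 0.972 and 1.62 with LPS+HACA. The LPS libraries were far above the rest, and the LPS+HACA libraries lay just above the higher control library. The rise was 29.5-fold (4.88 ± 0.57, edgeR adjusted p = 0.000882) and the fall with HACA 14.0-fold (−3.81 ± 0.53, edgeR adjusted p = 0.00668). Fscn1 with HACA did not pass against control (1.08 ± 0.58, edgeR adjusted p = 0.564). The control level rests on 15 and 4 counts, and the within-replicate LPS differences of 3.92 and 6.19 spread accordingly.

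**Figure D3:**
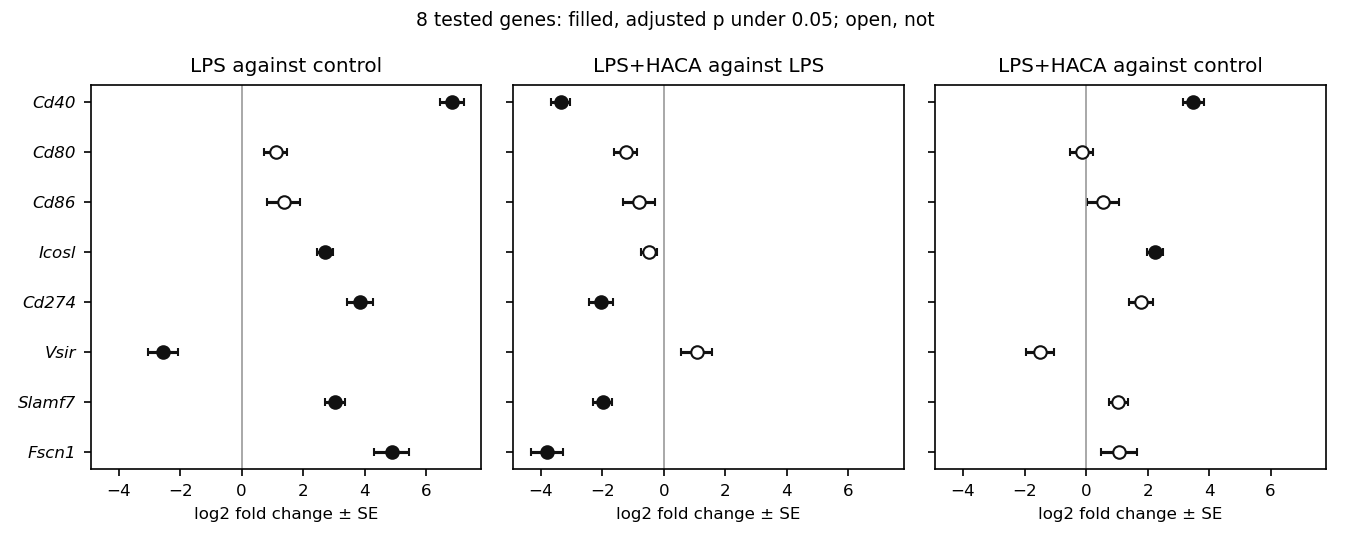
Log2 fold change ± SE of the 8 tested genes in each comparison, with filled points for an adjusted p under 0.05. Cd40 has the largest rise with LPS (6.84), Fscn1 the largest fall with HACA (−3.81), and Vsir alone lies below 0 with LPS.

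The share of the LPS level left with HACA was set beside the share that control already had. The mean of LPS+HACA was 7.14% of the LPS mean for Fscn1, 9.77% for Cd40, 24.3% for Cd274, 25.3% for Slamf7, 42.1% for Cd80, 57.0% for Cd86 and 71.5% for Icosl. The ratio of the control mean to the LPS mean was 0.033 for Fscn1, 0.0087 for Cd40, 0.070 for Cd274 and 0.12 for Slamf7. It was 0.46 for Cd80, 0.39 for Cd86 and 0.15 for Icosl. For Cd80 the LPS+HACA mean was 0.91 of the control mean, while for Cd40 it was still 11.2 times control. A lower percentage is therefore not a fuller return to control. Differences between genes were not tested. The LPS and control libraries did not overlap for any of the 8 tested genes (66.7% of all genes), LPS+HACA and LPS for 7 of 8 (57.7%), and LPS+HACA and control for 6 of 8 (46.5%). In each group 8 of the 10 genes were higher in replicate 2. That tally takes in Cd83 and Pdcd1lg2, with 12 and 6 counts in all. In control, LPS and LPS+HACA, 8, 10 and 12 of 12 CD40 signalling genes were higher in replicate 2. Of 16 other B7, butyrophilin and checkpoint ligands it was 7, 5 and 6. The share over all genes was not computed.

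Levels of different genes were set side by side per kilobase of own sequence, the bases no other transcript shares. In control the order was led by Vsir (39.3 and 42.2 CPM per own kilobase) and Slamf7 (31.9 and 46.0), followed by Cd274 (19.1 and 40.0), and the libraries of these 3 overlapped. In LPS, Cd274 was first (371 and 472), then Slamf7 (287 and 350), Cd40 (69.3 and 112.8) and Icosl (38.2 and 51.6). These 4 did not overlap, while Icosl overlapped Cd86 (24.8 and 47.2) and Cd86 overlapped Fscn1 (17.8 and 26.2). In LPS+HACA, Cd274 (77.5 and 127) and Slamf7 (61.0 and 100.1) overlapped at the top, and Cd40 (7.72 and 10.1) stood below Icosl (30.1 and 34.1) and Cd86 (13.2 and 27.8). The place of Vsir rests on 171 bases, and that of Icosl on retained-intron transcripts, which held 98.1% of its counts. Before this division Vsir stood at 6.71 and 7.21 CPM in control, beside 59.3 and 124 for Cd274. Counts did not follow own bases even within Cd40, where Cd40-204 had 1062 counts over 114 own bases and Cd40-201 1367 over 1294. The measure can therefore be too high for genes with short own stretches, and the order between genes is uncertain.

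The LPS libraries took lower scaling factors (0.812 and 0.676) than the other 4 (1.14 to 1.19). Scaling by library totals in place of TMM moved the median of all genes to −0.69 for LPS against control and 0.70 for LPS+HACA against LPS. All genes called then split into 1417 higher and 5111 lower with LPS in place of 2715 and 2442, or 21.7% higher in place of 52.6%, and into 3501 and 522 with HACA in place of 983 and 1312, or 87.0% in place of 42.8%. Each member call in these 2 comparisons was kept. Under library totals Cd40 stood at 6.17 and −2.68, Cd274 at 3.18 and −1.39, Slamf7 at 2.38 and −1.33, Fscn1 at 4.22 and −3.14, and Vsir at −3.19 and 1.70.

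The genes around these ligands were taken from 6 lists named for this comparison. Beside the counts called in them stand 15.9% of all genes higher and 14.3% lower with LPS. With HACA against LPS the shares were 5.74% higher and 7.67% lower. Of 16 other B7, butyrophilin and checkpoint ligands, 8 were tested, and 5 were higher with LPS (median 1.02) and 3 lower with HACA (median −0.73). Under library totals 3 were higher with LPS (median 0.37) and 1 lower with HACA (median −0.08). Pvr, the ligand of CD226 and TIGIT, stood at 23.0 and 23.4 CPM in control, 215 and 303 with LPS and 32.2 and 41.6 with LPS+HACA. It rose by 3.48 ± 0.27 and fell by 2.81 (± 0.26) on the log2 scale (edgeR adjusted p = 0.000202 and 0.00266). Lgals9, the galectin 9 gene, rose by 2.43 ± 0.33 and changed by −1.43 ± 0.32 with HACA (edgeR adjusted p = 0.00167 and 0.0263). Nectin2, whose product shares receptors with that of Pvr, changed by 1.39 ± 0.23 and −0.99 ± 0.23 (edgeR adjusted p = 0.004 and 0.0303). Under library totals the HACA calls of Lgals9 and Nectin2 were not kept (−0.79 and −0.35, edgeR adjusted p = 0.128 and 0.312). The HACA calls of Lgals9 and Nectin2 were lost without either control or either LPS+HACA library (edgeR adjusted p = 0.0588, 0.0593, 0.117 and 0.153, and 0.0793, 0.0776, 0.191 and 0.154, for control 1 and 2 and LPS+HACA 1 and 2), and the LPS call of Nectin2 without control replicate 2 (edgeR adjusted p = 0.0575).

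Of 10 TNF family and adhesion costimulators, 8 were tested, with 3 higher in LPS and 3 lower with HACA (medians 1.28 and −0.72). These compare with 15.9% and 7.67% of all genes. Under library totals the counts were the same and the medians 0.67 and −0.06. Tnfsf9, which encodes the 4-1BB ligand, stood at 5.08 and 8.20 CPM in control, 204 and 445 with LPS and 21.3 and 38.9 with LPS+HACA (5.61 ± 0.54 and −3.43 ± 0.49, edgeR adjusted p = 0.000557 and 0.00808). Icam1, the adhesion ligand of LFA-1, stood at 255 and 272, then 3603 and 4259, then 912 and 1029.7 CPM (3.90 ± 0.22 and −2.02 ± 0.20, edgeR adjusted p = 9.7e-05 and 0.00273). With HACA it was the 1 gene of that list called against control (1.88 ± 0.20, edgeR adjusted p = 0.0115, but 0.237 and 0.158 without control replicate 1 or 2), while Tnfsf9, 4.53-fold above control there, did not pass (edgeR adjusted p = 0.0936). Tnfsf15, the TL1A gene, changed by 3.78 ± 0.39 and −2.78 ± 0.37 (edgeR adjusted p = 0.000568 and 0.00614).

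Of 10 other SLAM family genes and adaptors, 7 were tested, with 1 higher and 2 lower in LPS, beside 15.9% and 14.3% of all genes (median 0.31, but −0.34 with 0 and 2 under library totals). With HACA 1 was higher and 0 lower than with LPS, beside 5.74% and 7.67% (median −0.02, but 0.65 with 2 and 0 under library totals, and 0 and 0 with the DESeq2 size factors). Cd84 stood at 294 and 346 CPM in control, 145 and 87.6 with LPS and 218 and 245 with LPS+HACA, and changed by −1.46 ± 0.27 and 0.99 ± 0.27 (edgeR adjusted p = 0.00625 and 0.0496). Its LPS call was lost without control replicate 2 (edgeR adjusted p = 0.056) and its HACA call in 5 of 6 fits with 1 library left out, all but that without LPS replicate 1. The adaptor gene Sh2d1b1 fell by 3.20 (± 0.75) on the log2 scale and Slamf9 rose by 2.58 ± 0.75 (edgeR adjusted p = 0.0189 and 0.0454). Under library totals the call of Slamf9 was lost (1.99, edgeR adjusted p = 0.0874). Sh2d1b1 did not pass without control replicate 1, LPS replicate 1 or LPS replicate 2 (edgeR adjusted p = 0.0728, 0.0867 and 0.182), nor Slamf9 without any one of the control and LPS libraries (edgeR adjusted p = 0.0726 to 0.229).

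Below CD40, 8 of 12 signalling genes were higher and 1 lower with LPS (median 1.64), beside 15.9% and 14.3% of all genes. With HACA 4 were lower than with LPS (median −0.73), beside 7.67%. Under library totals the counts of this list were 6 and 2 with LPS (median 0.97). With HACA they were then 1 higher and 2 lower (median −0.07). Traf1, an adaptor bound to activated CD40, stood at 23.0 and 28.1 CPM in control, 339 and 699 with LPS and 81.4 and 119 with LPS+HACA (4.34 ± 0.41 and −2.37 ± 0.37, edgeR adjusted p = 0.00037 and 0.00919). The NF-kB precursor genes Nfkb2 and Nfkb1 changed by 2.93 ± 0.40 and 2.53 ± 0.32 with LPS (edgeR adjusted p = 0.00172 and 0.00121) and by −1.92 ± 0.39 and −1.42 ± 0.31 with HACA (edgeR adjusted p = 0.0197 and 0.0241). Under library totals the HACA call of Nfkb1 was lost (−0.75, edgeR adjusted p = 0.0788). Map3k14, the NIK kinase that acts downstream of CD40, went the other way with LPS (46.4 and 46.4 CPM against 8.67 and 19.5, −1.72 ± 0.37, edgeR adjusted p = 0.0103). Without LPS+HACA replicate 1 the HACA calls of Traf1, Nfkb2 and Nfkb1 were lost (edgeR adjusted p = 0.0632, 0.125 and 0.154), that of Nfkb1 also without either control library or LPS+HACA replicate 2 (edgeR adjusted p = 0.0583, 0.06 and 0.0551). Map3k14 did not pass without control replicate 1 or 2 (edgeR adjusted p = 0.0554 and 0.0607), and with HACA it passed only without LPS replicate 2 among those fits (1.77, edgeR adjusted p = 0.0064, against 1.07 and 0.0881 with all libraries).

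Of 11 regulators of the surface ligands, 10 were tested, with 4 higher in LPS (median 0.37, −0.29 under library totals with 2 higher and 3 lower) and 3 lower with HACA (median −0.36, 0.29 under library totals with 3 higher and 1 lower). Over all genes 15.9% were higher with LPS and 7.67% lower with HACA. Under library totals 1417 of all genes were higher and 5111 lower with LPS, and 3501 and 522 with HACA. Irf1, an interferon-response factor known to act on Cd274, stood at 10.7 and 13.1 CPM in control, 76.9 and 126 with LPS and 34.3 and 48.9 with LPS+HACA. It rose with LPS by 3.09 ± 0.33 and changed by −1.28 ± 0.31 with HACA (edgeR adjusted p = 0.000649 and 0.0336), and was above control with HACA (1.81 ± 0.32, edgeR adjusted p = 0.0445). Under library totals its HACA call against LPS was lost (−0.61, edgeR adjusted p = 0.14). The call against control was lost without either control library or either LPS+HACA library (edgeR adjusted p = 0.0774 to 0.439), and the HACA call in 5 of 6 such fits (edgeR adjusted p = 0.0774 to 0.204), the exception being that without LPS replicate 1. Cish, a suppressor of cytokine signalling, rose by 2.23 ± 0.43 and fell by 3.27 (± 0.45) with HACA (edgeR adjusted p = 0.00655 and 0.00682), the rise being lost without control replicate 2 (edgeR adjusted p = 0.0716). Stat3, a transcription factor downstream of cytokine receptors, stood at 13.0 and 11.05 CPM in control, 21.3 and 30.2 with LPS and 12.5 and 12.2 with LPS+HACA (1.10 ± 0.27 and −1.06 ± 0.27, edgeR adjusted p = 0.0187 and 0.0403). Its LPS call was lost under library totals (edgeR adjusted p = 0.197) and without control replicate 1, control replicate 2 or LPS replicate 2 (edgeR adjusted p = 0.0956, 0.146 and 0.0519), and its HACA call under library totals (edgeR adjusted p = 0.268) and in 5 of 6 fits with 1 library left out, all but that without LPS replicate 1 (edgeR adjusted p = 0.0956 to 0.20).

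**Figure D4:**
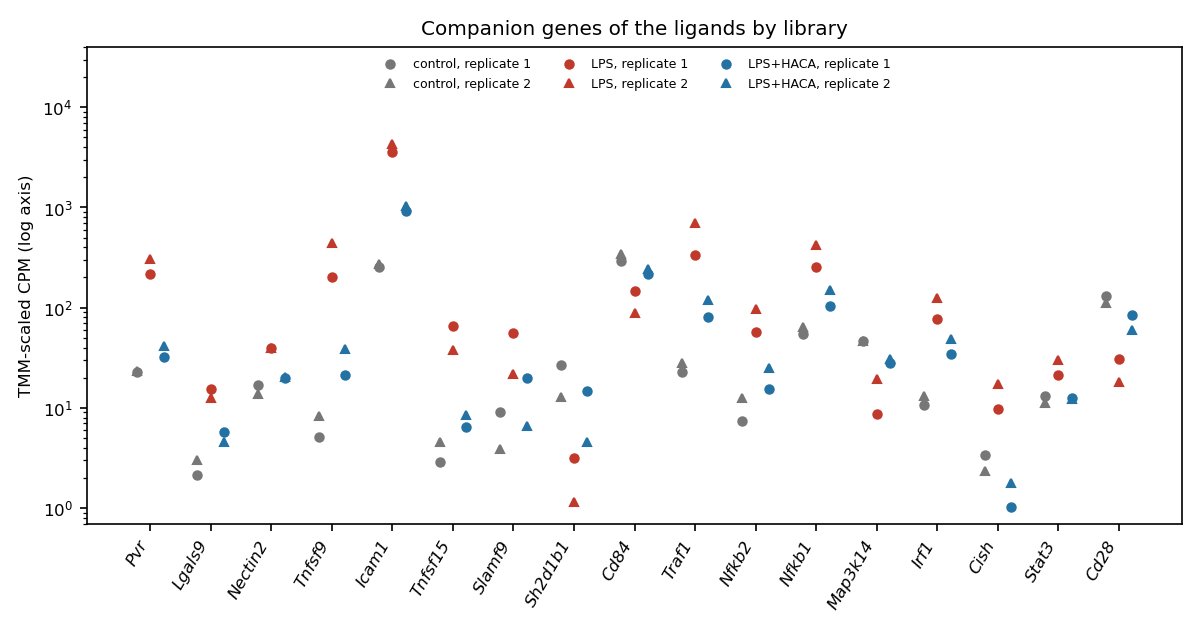
TMM-scaled CPM on a log axis of the companion genes named by rule, one point per library, with circles for replicate 1 and triangles for replicate 2. Pvr, Lgals9, Nectin2, Tnfsf9, Icam1, Tnfsf15, Slamf9, Traf1, Nfkb2, Nfkb1, Irf1, Cish and Stat3 are highest in both LPS libraries. Sh2d1b1, Cd84, Map3k14 and Cd28 are lowest there.

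Dendritic cell markers were followed beside the ligands. The 8 markers summed to 19.7 and 26.9 CPM in control, 47.6 and 73.1 with LPS and 23.9 and 31.8 with LPS+HACA. Of 5 tested, Itgax and Xcr1 were higher with LPS (1.28 ± 0.40 and 3.64 ± 0.41, edgeR adjusted p = 0.0427 and 0.000796), and Xcr1 was lower with HACA (−2.45 ± 0.38, edgeR adjusted p = 0.00919). Over all genes 15.9% were higher with LPS and 7.67% lower with HACA. Under library totals, and with protein-coding genes alone, 1 marker in place of 2 was higher with LPS. The other 3 tested did not pass with LPS, Ccr7 at 2.36 ± 0.77, Zbtb46 at 0.11 ± 0.44 and Flt3 at −0.40 ± 0.86 (edgeR adjusted p = 0.0506, 0.876 and 0.766), and Flt3 stood at −3.19 ± 1.06 with HACA against control (edgeR adjusted p = 0.256). Cd209a was at 0 in every library, and Clec9a and Siglech were under 1 CPM. The part of dendritic cells in the values of Cd40, Fscn1 or the ligands was not tested. Of the 7 T and NK cell markers, Cd3e, Cd8a, Nkg7 and Ncr1 were at 0, and Cd3g and Cd3d stayed under 1 CPM. Cd4, the other marker of that list, stood at 5.02 to 41.4 CPM. The 5 B cell markers summed to 12.0 and 13.6 CPM in control, 3.15 and 3.76 with LPS and 13.6 and 8.25 with LPS+HACA, with Cd79b and Pax5 at 0 and Cd79a at 0.296 to 2.25.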

How the data were processed

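Messenger RNA was pulled down by its poly-A tail and made into TruSeq libraries, per the labels' protocols. The submitters' processing notes name STAR 2.5.4b, edgeR 3.28.1 and DESeq2 1.26.0 beside CASAVA, Trim Galore and limma, and the builds GRCm38 and GRCh38. Per the file headers, the authors deposited raw counts per transcript, which were whole numbers, and FPKM values, which equalled count over length and library size to within 0.1% for 99.6% of values with at least 50 counts. The FPKM values were not used further. Neither the counting program nor its use of strand is given in the sources used here.

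GENCODE vM21 (GRCm38) held 141524 of the 142647 transcripts, and their counts were summed into 55263 genes. The other 1123, with up to 0.115% of a library, were left out. Genes of the type misc_RNA held 24.3% to 29.2% of a library. Own bases are those that no other transcript shares on either strand. Of all counts, 99.2% fell on transcripts with 100 or more own bases and 0.0672% on transcripts with none, so reads over shared bases are mostly missing. A change of isoform and a change of level cannot be told apart for genes with few own bases.

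Genes passing filterByExpr were scaled by TMM and fitted with edgeR 4.0.16 (quasi-likelihood, robust) in R 4.3.3 over all 6 libraries, with group as the only term and 3 residual degrees of freedom. Benjamini-Hochberg adjustment ran over 17113 genes with a threshold of 0.05. SE is the absolute log2 fold change over the square root of F. Ratios of low counts carry exact 95% intervals. The procedure was tested on simulated counts. Replicates differed by more than sampling noise (chi-square per degree of freedom 23.3 to 55.5). The labels do not say that they came from separate cultures, so the spread behind each p-value is only that between these libraries and may be technical.

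The genes, companion lists and marker lists were chosen with earlier results of these data known. Named are all 10 genes and, per companion list, up to 3 genes higher and 2 lower with LPS, by size of change, among called genes with a mean of at least 5 CPM in the higher group. A regulator and a B cell marker are not reported here. Within-replicate differences used a prior count of 0.5. Alternatives were other scalings, filters, tests (DESeq2 1.42.0, limma-voom 3.58.1), transcripts, a replicate block and leaving out each library. Transcript-level fits and sums without retained introns were added after the data had been seen.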

Additional observations from a re-analysis of the deposited data

How the results depend on the processing

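Over 14 changes of processing or libraries, the LPS calls of Cd40, Cd274, Icosl, Vsir, Slamf7 and Fscn1 held in all, and so did the HACA calls of Cd40 and Fscn1. Against LPS alone the call of Slamf7 held in 13 and that of Cd274 in 11. Against control those of Cd40 and Icosl held in 12 and 11. DESeq2 also called Cd80 with LPS and with HACA against LPS (DESeq2 adjusted p = 0.0293 and 0.0209), Cd86 with LPS (0.0287) and Cd274 with HACA against control (0.00124). Signs changed for values that did not pass: Icosl with HACA against LPS was 0.18 under library totals, Cd80 with HACA against control was 0.12 without control replicate 1 (−0.37 to 0.12 over the left-out libraries), and Cd86 in the same comparison was −0.075 without LPS+HACA replicate 2 (−0.075 to 1.25). Stat3 with HACA against control, 0.042 with all libraries and transcripts, was −0.35 for its most counted transcript alone, −0.030 without retained-intron transcripts and −0.067 without control replicate 2 (−0.067 to 0.15). Under library totals 1417 genes were higher and 5111 lower with LPS, 3501 and 522 with HACA, and 24 lower with HACA against control. Without a filter on low counts 1845 genes were higher with HACA against LPS, and 661 higher and 250 lower against control, with 4 and 1 of the list. Against control DESeq2 called 467 higher and 199 lower, limma-voom 74 lower, and protein-coding genes alone 28 lower, and without retained-intron transcripts 1 gene of the list was higher. Leaving out each library gave 1190 to 3024 genes higher and 916 to 2817 lower with LPS (5 to 6 and 1 of the list), 152 to 1617 and 216 to 1793 with HACA (0 and 2 to 4 of the list), and 0 to 420 and 0 to 186 against control (0 to 2 and 0 of the list). The lowest counts against control came without control replicate 1 (0 and 0) and control replicate 2 (2 and 0), and the lowest with HACA against LPS without LPS+HACA replicate 1. The cause was not tested. A lone library in a group was then assumed to vary like the other groups.

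The replicate numbers are shared by the groups, but no label says that they pair the libraries, and there are only 2 pairs per comparison. The deviations of same-numbered libraries correlated across genes at 0.31 for control and LPS, 0.51 for control and LPS+HACA and 0.50 for LPS and LPS+HACA. With the replicate number as a block, 3506 genes were higher and 3384 lower with LPS, 1955 and 2356 with HACA against LPS, and 628 and 307 against control. Of the list, 7 were higher and 1 lower with LPS, 6 lower with HACA, and 4 higher and 1 lower against control. Cd80 and Cd86 passed with LPS (edgeR adjusted p = 0.0309 and 0.000207) and with HACA (0.0266 and 0.00838), and Cd274, Slamf7 and Vsir against control (0.000624, 0.00702 and 0.0431).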

Other observations

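Cd28, which encodes the receptor on T cells for CD80 and CD86, was counted in every one of these 6 macrophage libraries. It stood at 130 and 112 CPM in control, 30.9 and 18.2 with LPS and 85.0 and 60.4 with LPS+HACA, and the 3 groups did not overlap. It fell with LPS by 2.30 (± 0.32) on the log2 scale and rose with HACA by 1.57 ± 0.31 (edgeR adjusted p = 0.00175 and 0.0189). The rise was lost without control replicate 2 or LPS+HACA replicate 1 (edgeR adjusted p = 0.0515 and 0.102). The coding transcript Cd28-201 held 98.0% of its counts, while the T cell genes Cd3e and Cd8a had none in any library and Cd3g and Cd3d stayed under 1 CPM. Of the 9 T cell counter-receptors listed, Lag3 was the other gene tested (−0.15 ± 0.66 with LPS, edgeR adjusted p = 0.889), and Ctla4, Icos, Pdcd1, Cd40lg, Btla, Cd226 and Tigit stayed under 1 CPM.

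Cd4 stood at 14.8, 5.02 and 5.71 CPM in replicate 1 and 41.4, 33.8 and 33.3 CPM in replicate 2 of control, LPS and LPS+HACA. Ighm fell with LPS by 1.95 (± 0.36) and rose with HACA by 1.77 ± 0.36 on the log2 scale (edgeR adjusted p = 0.00615 and 0.0208), with Cd79b and Pax5 at 0. Cd79a had 28 and 34 counts in control, 3 and 11 with LPS and 24 and 22 with LPS+HACA, and its changes of −1.55 ± 0.61 and 1.10 ± 0.62 did not pass (edgeR adjusted p = 0.0928 and 0.268).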
